A study of Homo sapiens with 12 samples.

Results

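The comparison described here is that of siRNA against RHOB (siRHOB) with negative control siRNA (siNC) in K562 cells kept for 3 days in a medium for megakaryocyte differentiation (MK medium). It rests on 6 of the 12 RNA-seq libraries of the study, chosen as the siRHOB and siNC libraries of that medium, and paired by the replicate number in their names. K562 is an established human chronic myeloid leukaemia line that carries features of the erythroid and megakaryocyte lineages. The other 6 libraries are siRHOB and siNC libraries of the same line in growth medium, and the study asked what RHOB does when these cells turn towards megakaryocytes or red cells. The 4 groups used are thus siRHOB in MK medium (n = 3), siNC in MK medium (n = 3), siRHOB in growth medium (n = 3) and siNC in growth medium (n = 3). All cells were transfected with an siRNA, and no other genetic change is named in the labels. Both the siRNA sequences and the make-up of the MK medium were not given in the sources used here. A single cell line was used. Whether the replicates came from separate cultures is not stated, so the p-values speak only of the spread among these libraries, and that spread may be technical.

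RHOB is a small GTPase of the same family as RHOA and RHOC. It switches between a GTP-bound and a GDP-bound form, acts on actin through effectors shared with them, and sits partly on endosomes, where it takes part in receptor traffic. Signalling by these GTPases reaches transcription in part through the actin-sensing cofactors MRTF and their partner SRF, whose targets are largely genes of the actin cytoskeleton. In megakaryocytes, contraction driven by RHOA bears on the switch from cell division to repeated DNA replication without division, and on the release of platelets.

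The 6 libraries held 34412558 to 41872422 reads in genes, and 13707 of 19225 genes passed the filter on low counts. Levels are given as CPM, read counts scaled to a common library size with TMM factors, and pair values as the log2 ratio of the siRHOB-labelled over the siNC-labelled library. Replicate 3 stood apart in both groups. Its log2 levels differed from the mean of replicates 1 and 2 with a spread over genes of 0.67 (siRHOB-labelled) and 0.798 (siNC-labelled), against 0.352 and 0.358 between replicates 1 and 2. Erythroid and megakaryocyte markers were present in every library: HBE1 lay between 3068 and 4198 CPM and ITGA2B between 157.3 and 312.2 CPM. Markers of other cell types are given as sums of CPM without TMM factors. These sums were highest in replicate 3 of each group, at 634.4 and 673.6 CPM for 25 monocyte and granulocyte genes. Of these genes, FCGR2A, CD68 and LYZ had the most reads over the 6 libraries, and S100A8, S100A12, CTSG and FCN1 had none. Lymphoid markers, 23 genes, summed to 116.5, 154.1 and 227.9 CPM in siRHOB-labelled libraries, against 112.8, 128.1 and 236.5 CPM in siNC-labelled libraries. GZMB, CD3D and PRF1 had the most reads among them, and CD8A, CD2, MS4A1 and GZMA were at 0. The 25 fibroblast, epithelial and endothelial markers summed to 302.1 to 504.6 CPM with LUM, CDH1, KRT5, KRT14 and EMCN at 0. COL1A1, COL1A2 and TIE1 had the most reads in this list. COL1A2 ran against the sum and was lowest in replicate 3. With TMM factors it stood at 132.0, 130.0 and 26.9 CPM in siRHOB-labelled libraries, against 124.9, 124.2 and 21.9 CPM in siNC-labelled libraries. In these bulk libraries, fewer cells of a type and less RNA per cell cannot be told apart.

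RHOB mRNA itself was not lower in every pair. It stood at 12.8, 15.9 and 22.7 CPM in siRHOB-labelled libraries 1, 2 and 3, against 13.1, 10.4 and 33.4 CPM in siNC-labelled libraries 1, 2 and 3. The groups overlapped: pair 1 was level, pair 3 was lower in the siRHOB-labelled library, and pair 2 was higher. The log2 ratios were -0.03, 0.61 and -0.56, and the mean was 0.0073 ± 0.586 (SD, n = 3 pairs; exact two-sided sign-flip permutation test, p = 1, where 3 pairs allow no p under 0.25). The paired edgeR fit gave a log2 fold change of -0.02 ± 0.23 (SE), with a 95% interval of -0.63 to 0.59 (adjusted p = 0.999). Because the target gene goes against the label in pair 2, libraries are named here by their label, and a direction is that of the labels, not of measured RHOB.

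The closest relatives of RHOB differed little between the labels. RHOA, which drives stress fibres and contraction, was at 347.0, 329.3 and 320.7 CPM in siRHOB-labelled libraries, against 349.0, 350.0 and 330.8 CPM in siNC-labelled libraries. RHOC, known for its part in cell motility, was at 298.4, 318.3 and 363.8 CPM in siRHOB-labelled libraries, against 296.2, 295.5 and 357.6 CPM in siNC-labelled libraries. RHOA was lower and RHOC higher in all 3 pairs, but the groups overlapped for both, and the log2 fold changes were -0.05 ± 0.04 and 0.05 ± 0.04 (edgeR, adjusted p = 0.98 each). Per length, RHOB was the least abundant of the 3, with 5.45, 6.65 and 9.51 FPKM in siRHOB-labelled libraries, against 5.56, 4.37 and 13.9 FPKM in siNC-labelled libraries. In the siRHOB-labelled libraries RHOA had 169.2 to 185.3 FPKM and RHOC 224.6 to 270.7 FPKM.

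**Figure D1:**
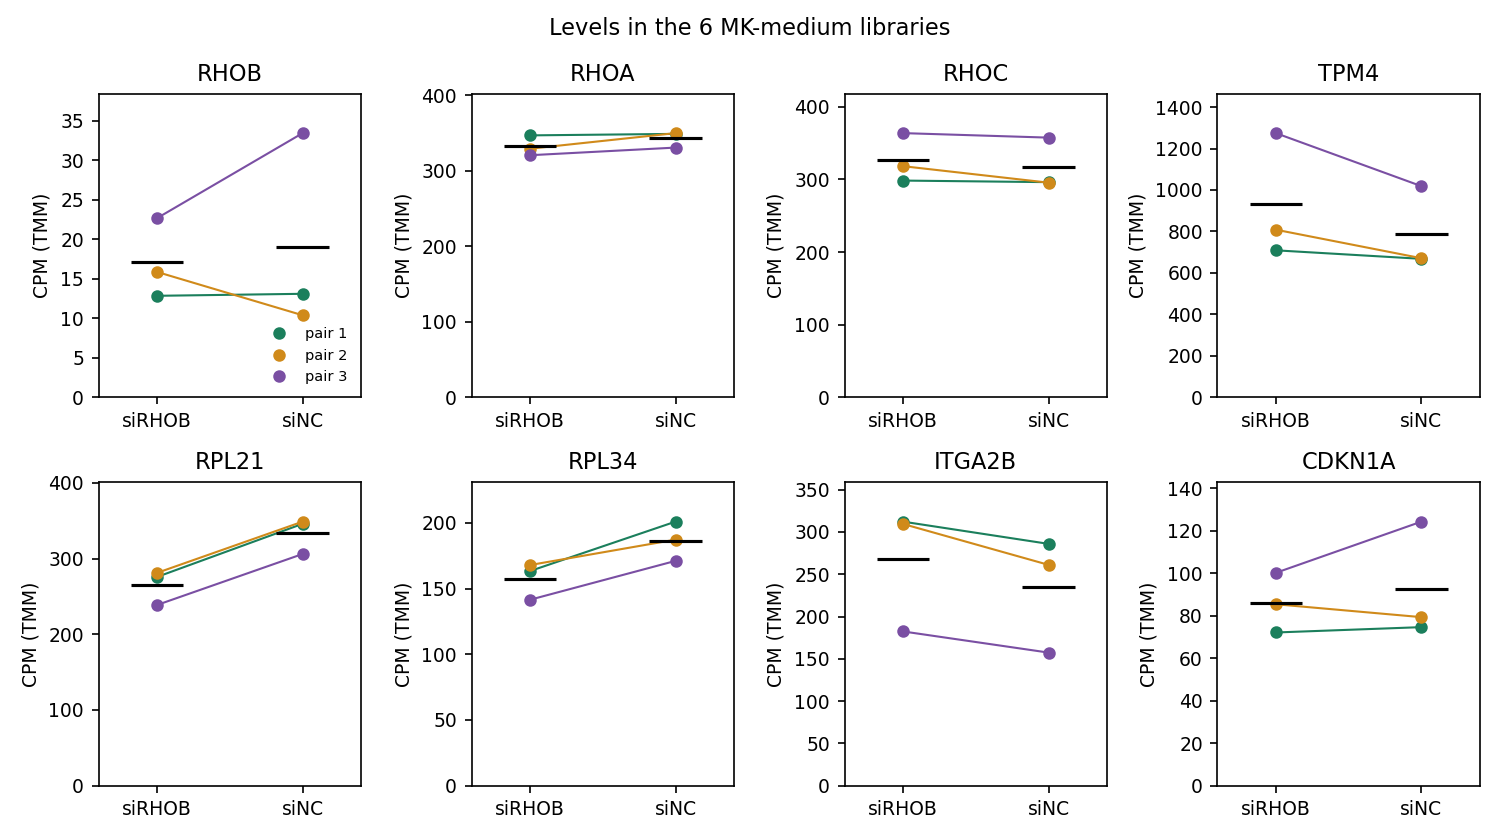
Each point is a library's level in TMM-normalised CPM, with siRHOB on the left and siNC on the right, a colour and a line per pair, and a black bar at each group mean (n = 3). RHOB crosses between pairs, while RPL21 and RPL34 lie lower and TPM4 and ITGA2B higher in the siRHOB-labelled library of every pair, and CDKN1A has no common direction.

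Across all genes, the pairs shared little. By the paired edgeR quasi-likelihood test, 1 of 13707 genes (0.0073%) passed an adjusted p under 0.05: RPL21, which fell. At an unadjusted p under 0.05, 303 genes (2.21%) stood higher and 321 (2.34%) lower, 624 in all (4.55%). Without pair 2, where RHOB went against the label, 27 genes passed (1 higher, 26 lower). Without pair 3, which stood apart, 61 passed (41 higher, 20 lower), and without pair 1 none did (334 at an unadjusted p under 0.05). Each of these 3 fits held only 2 pairs. For 10202 of the 10385 genes with a mean of at least 5 CPM (98.2%), the 95% interval of the fold change lay within 1.5-fold in either direction. The log2 ratios of 2 pairs correlated over all 13707 genes with a Pearson coefficient of 0.017 (pairs 1 and 2), 0.022 (pairs 1 and 3) and -0.066 (pairs 2 and 3), which is a description across genes. Over the 2578 genes with at least 100 CPM these were 0.211, 0.209 and -0.23, so among abundant genes pair 2 and pair 3 tended in opposite directions.

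Genes with the same direction in all 3 pairs numbered 1894 higher (13.8%) and 1667 lower (12.2%). Most of these ratios were small: in the pair with the smallest ratio, the median was 1.03-fold in both lists. Signs unrelated between the 3 pairs would give shares close to 13.8% and 12.2%. These counts alone therefore do not mark genes that respond to the siRNA. A ratio of at least 1.5-fold in every pair was met by 18 genes higher (0.131%) and 10 lower (0.073%), and none of the 28 had a mean of 5 CPM or more. Of the 10385 genes with a mean of at least 5 CPM, 1476 (14.2%) were higher and 1282 (12.3%) lower in all 3 pairs, and of the 2578 with at least 100 CPM, 432 (16.8%) and 306 (11.9%). Every siRHOB-labelled library lay above every siNC-labelled library in 287 genes (2.09%), and below in 269 (1.96%).

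RPL21, a protein of the large ribosomal subunit, was at 275.8, 281.1 and 238.7 CPM in siRHOB-labelled libraries, against 346.0, 348.9 and 306.1 CPM in siNC-labelled libraries. All siRHOB-labelled libraries lay below all siNC-labelled ones, by nearly the same ratio in each pair. The log2 ratios were -0.33, -0.31 and -0.36, and the log2 fold change was -0.33 ± 0.04 (SE, edgeR adjusted p = 0.0362). The call was lost without the replicate block (adjusted p = 1), without pair 1 (adjusted p = 1) and after a correction for gene length (log2 fold change -0.25, adjusted p = 0.974). Human ribosomal protein genes have many processed copies elsewhere in the genome, and the authors' handling of reads shared with them was not given in the sources used here.

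Genes with the next smallest p did not pass the adjusted threshold, and they went both ways. PLCXD1, TPM4, ITGA2B and RASA4, each higher in all 3 pairs, had a smaller p than PCLAF and are named below. RPL34, a large-subunit protein, was at 163.3, 167.9 and 141.5 CPM in siRHOB-labelled libraries, against 201.0, 187.3 and 171.1 CPM in siNC-labelled libraries (log2 fold change -0.24 ± 0.05, edgeR adjusted p = 0.824). NDUFA13, a subunit of respiratory complex I, was at 23.3, 28.0 and 21.8 CPM in siRHOB-labelled libraries, against 37.1, 32.1 and 32.4 CPM in siNC-labelled libraries (log2 fold change -0.48 ± 0.09, adjusted p = 0.824). PCLAF, a PCNA-binding protein of DNA replication, was at 76.7, 69.9 and 55.3 CPM in siRHOB-labelled libraries, against 85.8, 85.5 and 64.2 CPM in siNC-labelled libraries (log2 fold change -0.22 ± 0.05, adjusted p = 0.98). RPL34, NDUFA13 and PCLAF were lower in every pair, and in RPL34 and NDUFA13 the groups did not overlap.

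Among genes with a mean of at least 5 CPM, the 12 with the largest smallest-pair ratio in each direction were taken. The higher ones included PLCXD1, NOMO3, RSG1, SMN2, NUDT17, KIF9, PYM1, EIF3CL, GDAP1, ANKRD63 and RASA4, and the lower ones ASTE1, LNP1, WASHC2A, NSUN3, RPL21, ORAI1, NFKBIZ, C4orf48, GAGE2D, MED26, ANKRD33 and ZBTB10. The last on each side, RASA4 and ZBTB10, had smallest pair ratios of 0.23 and 0.27 on the log2 scale, and the next outside, MLC1 and CRNDE, had 0.23 and 0.25. Apart from RPL21, none passed the adjusted threshold.

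On the higher side, PLCXD1, a protein with a phospholipase C-type domain, was at 7.39, 7.56 and 8.07 CPM in siRHOB-labelled libraries, against 4.32, 4.36 and 5.92 CPM in siNC-labelled libraries. Its groups did not overlap, with a log2 fold change of 0.67 ± 0.14 (edgeR adjusted p = 0.98). In growth medium, however, the PLCXD1 log2 ratios were larger and kept no direction, at -0.93, 1.23 and -1.37. PYM1, which helps to strip exon junction complexes from mRNA, was at 18.7, 18.5 and 22.5 CPM in siRHOB-labelled libraries, against 15.7, 14.9 and 18.6 CPM in siNC-labelled libraries. PYM1 ratios lay between 0.25 and 0.31, and its groups overlapped slightly. KIF9, a kinesin motor, was at 12.02, 11.6 and 8.30 CPM in siRHOB-labelled libraries, against 10.1, 9.21 and 6.20 CPM in siNC-labelled libraries, again higher in each pair with overlapping groups.

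Several names on the higher side have near-identical copies. NOMO3 was higher in every pair, but the sum over NOMO1, NOMO2 and NOMO3 had log2 ratios of 0.14, 0.20 and -0.02. SMN1 and SMN2 summed to ratios of -0.97, 0.62 and 1.33, and EIF3C with EIF3CL to -0.04, -0.12 and 0.52. For RASA4 with RASA4B the sum stayed higher in each pair, at 0.12, 0.24 and 0.50. These families are uncertain as single genes, and WASHC2A on the lower side is too, since WASHC2A with WASHC2C summed to -0.26, 0.05 and -0.01.

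On the lower side, ASTE1, a protein with a nuclease-like fold, was at 4.53, 4.97 and 5.49 CPM in siRHOB-labelled libraries, against 6.73, 7.15 and 7.51 CPM in siNC-labelled libraries. NSUN3, which methylates a mitochondrial transfer RNA, was at 4.19, 3.67 and 4.97 CPM in siRHOB-labelled libraries, against 5.79, 5.43 and 6.20 CPM in siNC-labelled libraries. ORAI1, the pore of the store-operated calcium channel, was at 4.83, 5.78 and 10.6 CPM in siRHOB-labelled libraries, against 6.42, 7.41 and 13.1 CPM in siNC-labelled libraries. In ASTE1 and NSUN3 all siRHOB-labelled libraries lay below all siNC-labelled ones, whereas ORAI1 overlapped because both libraries of pair 3 were high. MED26, a Mediator subunit, had nearly equal ratios of -0.28, -0.27 and -0.30, and ZBTB10, a zinc finger repressor, had -0.37, -0.27 and -0.32. The edgeR adjusted p was 0.98 for each of these.

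**Figure D2:**
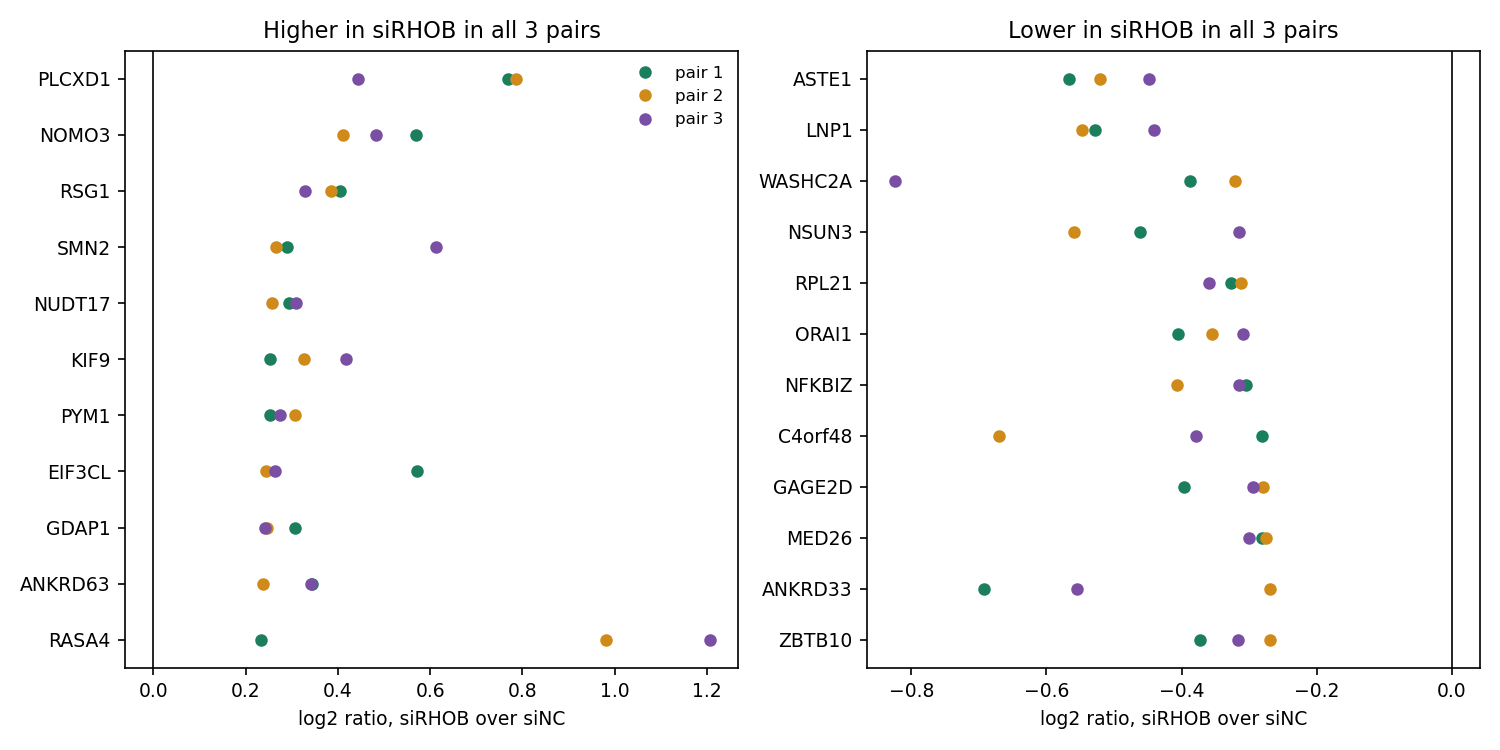
Each point is the log2 ratio of siRHOB over siNC in a pair, for the named genes with the largest smallest-pair ratio higher (left) and lower (right) in all 3 pairs at a mean of at least 5 CPM. Apart from RASA4, PLCXD1 and pair 3 of WASHC2A, the ratios lie under 0.7 in size, and the 2 panels have different scales.

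Of the 26 gene lists, that of ribosomal proteins had the largest share lower in all 3 pairs. Of 78 tested, 40 (51.3%) were lower and 2 (2.56%) higher in every pair, against 12.2% and 13.8% of all tested genes, and 32 were lower at an unadjusted p under 0.05, against 2.34% of all tested genes. The median log2 fold change was -0.11, against 0.002 over all genes. RPL21 alone passed the adjusted threshold. Without pair 2, 67 of the 78 were lower in both other pairs, against 25.2% of all genes, and without pair 3 it was 42, against 25.1%. The pairs were unequal: 76, 42 and 67 of the 78 were lower in pairs 1, 2 and 3, with median log2 ratios of -0.17, -0.01 and -0.11. Summed over the list, levels were 35786, 38632 and 32756 CPM in siRHOB-labelled libraries, against 38963, 39001 and 34730 CPM in siNC-labelled libraries.

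Members of both ribosomal subunits were among those lower in all pairs. RPL23A, a large-subunit protein at the exit of the nascent chain, was at 439.6, 540.0 and 459.7 CPM in siRHOB-labelled libraries, against 562.1, 566.3 and 550.7 CPM in siNC-labelled libraries. RPL31, also of the large subunit, was at 214.7, 250.8 and 190.2 CPM in siRHOB-labelled libraries, against 272.6, 260.9 and 241.8 CPM in siNC-labelled libraries. RPL23A did not overlap between the groups, while in RPL31 siRHOB-labelled library 2 lay above siNC-labelled library 3. The log2 fold changes were -0.23 ± 0.05 and -0.25 ± 0.06 (edgeR adjusted p = 0.98 for RPL23A and RPL31).

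Gene length went with membership of this list. The ribosomal protein genes had a median length of 734.5 bp, and 58 of the 78 were at most 1000 bp. Of the 750 other genes up to 1000 bp, 151 (20.1%) were lower and 50 (6.67%) higher in all 3 pairs, with median log2 ratios of -0.09, 0.01 and -0.05 in pairs 1, 2 and 3. Among the 64 of them with at least 100 CPM, 18 (28.1%) were lower in all pairs. After a loess correction of each library for gene length, chosen after seeing the data, 27 of the 78 ribosomal protein genes (34.6%) were lower in all pairs, against 12.4% of all genes and 14.1% of the other short, abundant genes. How much of the ribosomal protein difference goes with length in other ways, such as fragment selection, was not tested.

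**Figure D3:**
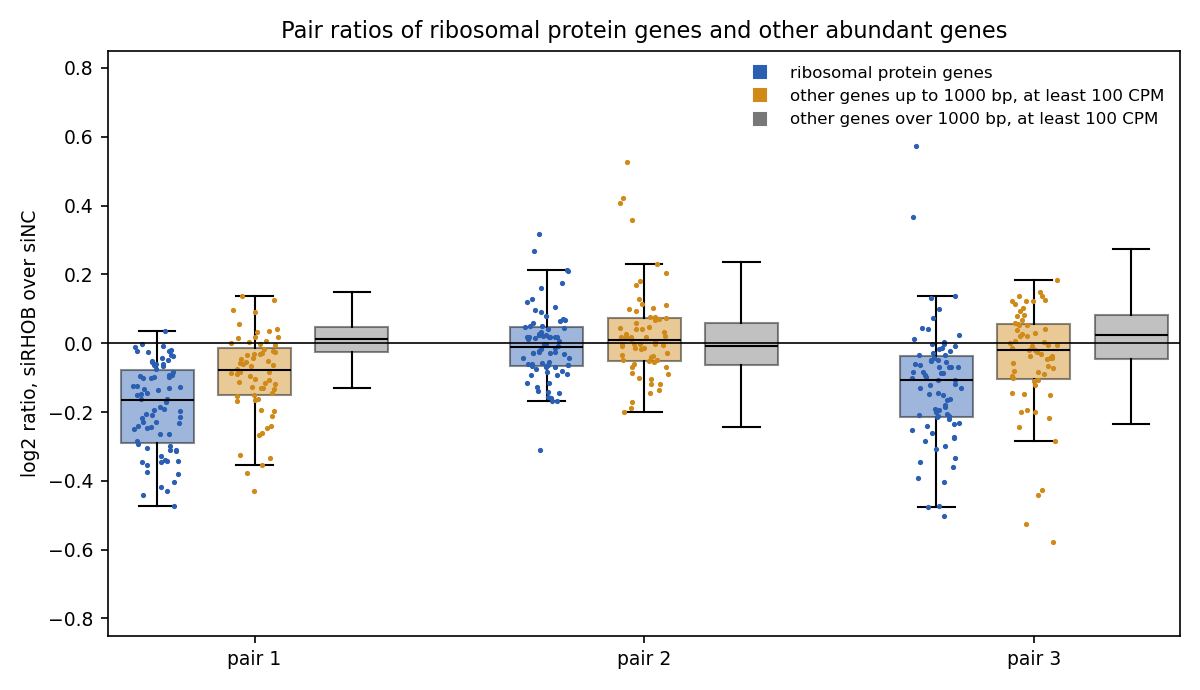
Boxes show the median and quartiles of log2 ratios (siRHOB over siNC) in each pair for the 78 ribosomal protein genes, for 64 other genes up to 1000 bp with at least 100 CPM, and for longer genes with at least 100 CPM; whiskers reach to 1.5 times the quartile range, points are single genes of the first 2 sets, and points beyond the axis are not drawn. Ribosomal protein medians are -0.17, -0.01 and -0.11 in pairs 1, 2 and 3, below those of the other short genes in each pair.

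Actin cytoskeleton genes under SRF and MRTF leaned the other way. Of 29 tested SRF/MRTF targets, 10 (34.5%) were higher and 1 (3.45%) lower in all 3 pairs, against 13.8% and 12.2% of all genes, and none passed the adjusted threshold. Among genes with at least 100 CPM the shares were 16.8% and 11.9%. The median log2 fold change of the targets was 0.08, with pair medians of 0.06, 0.12 and 0.01. In pair 3, 16 targets were higher and 13 lower, against 23 and 6 in each of pairs 1 and 2. Without pair 3, 18 were higher in both other pairs, against 28.1% of all genes, and without pair 2 it was 13, against 27.1%. The 10 were ACTN4, FHL2, KRT19, KRT8, LIMA1, SRF, TLN1, TPM4, VCL and ZYX, most of which encode proteins of actin filaments or focal adhesions. TPM4, a tropomyosin that lines actin filaments, was at 708.7, 808.3 and 1274 CPM in siRHOB-labelled libraries, against 667.6, 670.5 and 1018 CPM in siNC-labelled libraries. TPM4 was higher in each pair, but replicate 3 of both groups stood far above the others and the groups overlapped (log2 fold change 0.23 ± 0.05, edgeR adjusted p = 0.98). LIMA1, an actin bundler, had log2 ratios of 0.10, 0.16 and 0.11, and VCL, which encodes vinculin, 0.06, 0.08 and 0.11.

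Effectors of these GTPases and the actin machinery gave 15 of 74 tested members (20.3%) higher and 4 (5.41%) lower in all 3 pairs. The shares of all genes were 13.8% and 12.2%, and those of genes with at least 100 CPM 16.8% and 11.9%. The median log2 fold change of the list was 0.02, and in pair 3 more members were lower (40) than higher (34). Without pair 2, 23 of the 74 were higher in both other pairs, against 27.1% of all genes, and without pair 3 it was 32, against 28.1%. MYH9, the main non-muscle myosin heavy chain of megakaryocytes, was at 1159, 1248 and 1342 CPM in siRHOB-labelled libraries, against 1091, 1124 and 1260 CPM in siNC-labelled libraries (log2 fold change 0.11 ± 0.04, edgeR adjusted p = 0.98). CORO1B, a coronin at branched actin, had log2 ratios of 0.15, 0.11 and 0.07, and ACTB 0.02, 0.05 and 0.08. DIAPH3, a formin, was lower in each pair, with ratios of -0.07, -0.10 and -0.06. The groups overlapped for each of these genes.

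Regulators that load or unload GTP on these GTPases had 12 of 53 (22.6%) higher and 4 (7.55%) lower in all 3 pairs. The shares of all genes were 13.8% and 12.2%, and the median log2 fold change of the list was 0.02. Without pair 2, 20 of the 53 were higher in both other pairs, against 27.1% of all genes, and without pair 3 it was 24, against 28.1%. ARHGAP17, a GTPase-activating protein, was at 92.7, 102.9 and 111.2 CPM in siRHOB-labelled libraries, against 84.1, 91.8 and 101.9 CPM in siNC-labelled libraries, with ratios of 0.14, 0.16 and 0.13. The GTPase family of RHOB as a whole had 4 of 19 (21.1%) higher in all pairs: RHOBTB3, RHOC, RHOT2 and RND2. The 2 lower ones (10.5%) were CDC42 and RHOA, and the median of the family was 0.05. RND2, a member that does not hydrolyse GTP, was at 3.58, 3.02 and 3.62 CPM in siRHOB-labelled libraries, against 2.33, 2.73 and 2.92 CPM in siNC-labelled libraries, without overlap (log2 fold change 0.36 ± 0.20, adjusted p = 0.98 by edgeR). Endosome and membrane traffic genes had 8 of 42 higher (19%) and 4 lower (9.52%), with a median of -0.004. CAV1, the coat protein of caveolae, had ratios of 0.18, 0.25 and 0.18.

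**Figure D4:**
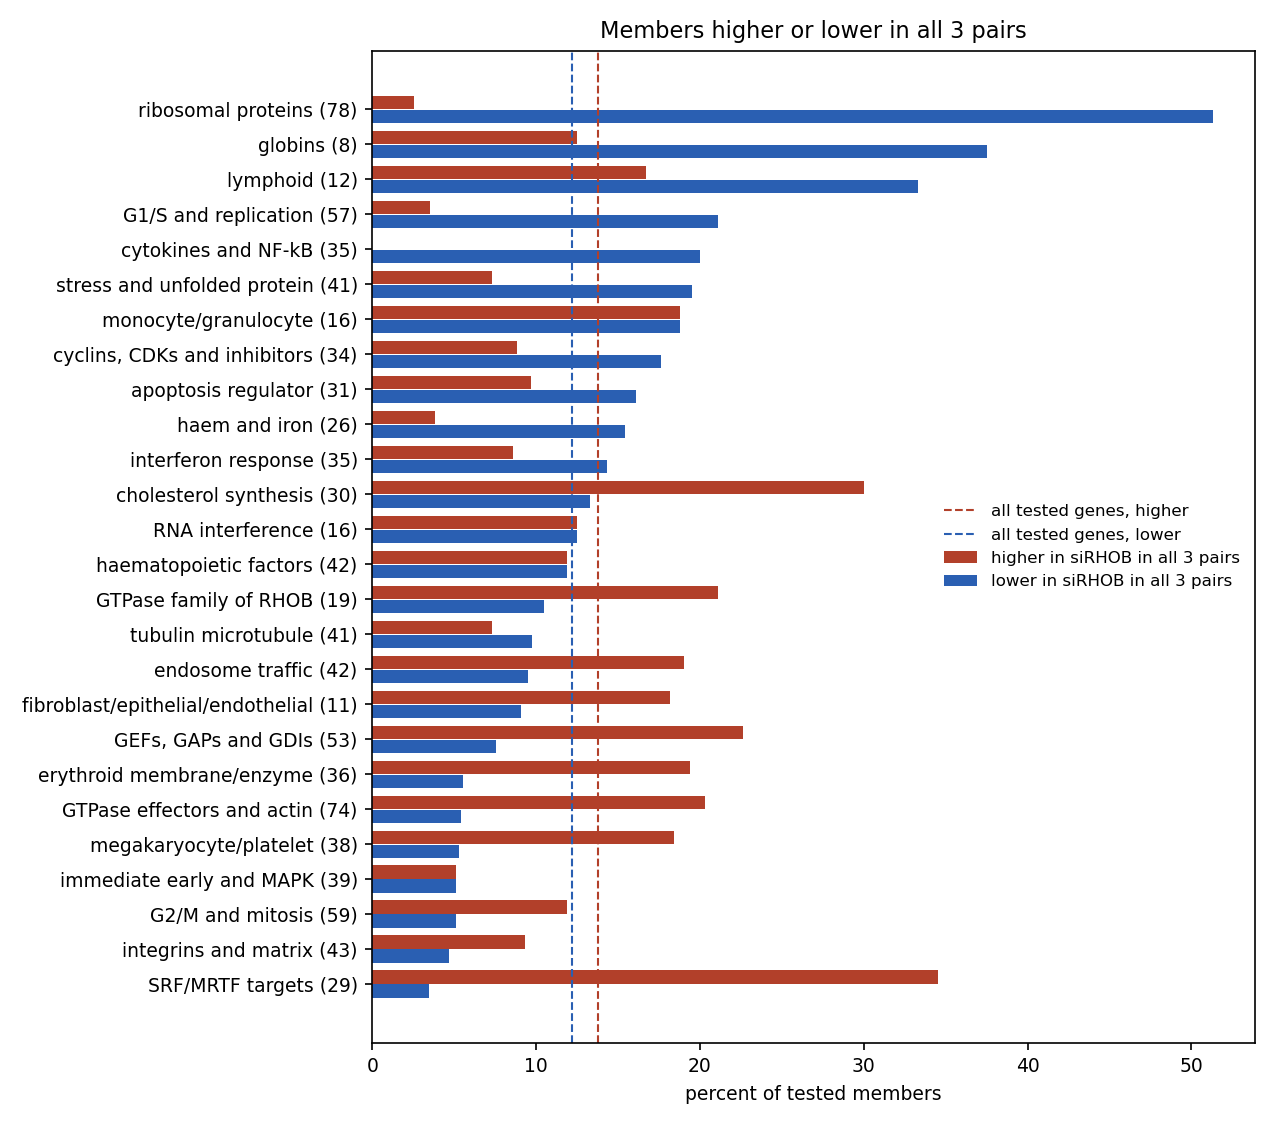
Bars give the percent of tested members (number in brackets) of each gene list that were higher (red) or lower (blue) in the siRHOB-labelled library in all 3 pairs, and dashed lines the same over all 13707 tested genes, 13.8% and 12.2%. Ribosomal protein genes reach 51.3% lower and SRF/MRTF targets 34.5% higher.

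Of the megakaryocyte and platelet genes, 7 of 38 tested (18.4%) were higher and 2 (5.26%) lower in all 3 pairs, against 13.8% and 12.2% of all genes. Their median log2 fold change was 0.05, and none passed the adjusted threshold. ITGA2B, which encodes the platelet integrin chain CD41, was at 312.2, 309.5 and 182.4 CPM in siRHOB-labelled libraries, against 285.9, 261.1 and 157.3 CPM in siNC-labelled libraries. It was higher in each pair by log2 ratios of 0.13, 0.25 and 0.21, although the groups overlapped because replicate 3 was low in both (log2 fold change 0.20 ± 0.04, edgeR adjusted p = 0.98). PLEK, the platelet protein kinase C substrate pleckstrin, was at 24.6, 19.2 and 14.7 CPM in siRHOB-labelled libraries, against 20.6, 18.8 and 10.2 CPM in siNC-labelled libraries. ITGB3, the partner chain of ITGA2B, had ratios of 0.09, 0.22 and -0.08, and TUBB1, the platelet tubulin, 0.00, -0.03 and 0.22, so neither kept a direction. CD36, a platelet and monocyte scavenger receptor, was lower in each pair at levels under 1 CPM in all 6 libraries.

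Globin genes had 3 of 8 (37.5%) lower in all 3 pairs (HBZ, HBG1 and HBG2), against 12.2% of all genes. The 1 higher (12.5%, against 13.8%) was AHSP, a chaperone of alpha globin, and the median log2 fold change was -0.10. HBZ, embryonic zeta globin, was at 218.7, 179.9 and 89.3 CPM in siRHOB-labelled libraries, against 231.7, 202.7 and 96.2 CPM in siNC-labelled libraries. HBG1 and HBG2, near-identical fetal globins that are uncertain apart, summed to 2732, 3131 and 1389 CPM in siRHOB-labelled libraries, against 3459, 3156 and 1487 CPM in siNC-labelled libraries. Their summed difference was largest in pair 1 and close to 0 in pair 2, at -0.34, -0.01 and -0.10 on the log2 scale, which is also the order of the ribosomal protein medians. Globin genes are short, with a median of 597 bp, and after the length correction 1 of 8 was lower in all pairs.

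Other erythroid lists held genes higher and genes lower in all 3 pairs. Membrane and enzyme genes of red cells had 7 of 36 higher (19.4%) and 2 lower (5.56%), with a median of 0.02. Among all genes 13.8% were higher and 12.2% lower. The higher ones included TSPO2, at under 1 CPM in all 6 libraries. The lower ones were SLC4A1, the anion exchanger band 3, with ratios of -0.11, -0.26 and -0.20, and TRIM58, a ubiquitin ligase of late erythroblasts, with -0.13, -0.34 and -0.15. Haem and iron genes had 1 of 26 higher (3.85%) and 4 lower (15.4%). Among the lower was FTH1, the ferritin heavy chain, at 1217, 1252 and 1281 CPM in siRHOB-labelled libraries, against 1253, 1304 and 1518 CPM in siNC-labelled libraries. Of the transcription factors of blood, 5 of 42 were higher and 5 lower (11.9% each). ZFPM1, the GATA1 cofactor FOG1, was at 56.5, 57.7 and 51.2 CPM in siRHOB-labelled libraries, against 52.4, 52.0 and 39.8 CPM in siNC-labelled libraries (log2 fold change 0.21 ± 0.06, adjusted p = 0.98 by edgeR). GATA1 had ratios of -0.01, 0.14 and 0.07, the erythroid factor KLF1 -0.09, -0.29 and 0.26, MYB 0.09, -0.27 and 0.11, and MYC 0.02, -0.03 and -0.05.

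Genes of the G1/S transition and DNA replication had 12 of 57 tested members (21.1%) lower and 2 (3.51%) higher in all 3 pairs. The shares of all genes were 12.2% and 13.8%. Pair medians of the list were -0.03, -0.10 and 0.07, so the list as a whole was not lower in pair 3. Without pair 3, 31 were lower in both other pairs, against 25.1% of all genes. RFC3, a clamp loader subunit, was at 50.3, 40.8 and 38.4 CPM in siRHOB-labelled libraries, against 53.8, 53.4 and 40.4 CPM in siNC-labelled libraries. The groups overlapped for RFC3, and it did not pass the adjusted threshold (log2 fold change -0.19 ± 0.07). RPA3, a subunit of the single-strand binding complex, had ratios of -0.23, -0.12 and -0.30.

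Mitotic genes had 7 of 59 higher (11.9%) and 3 lower (5.08%) in all 3 pairs, against 13.8% and 12.2% of all genes. Their pair medians were -0.03, -0.06 and 0.13. Cyclins, their kinases and inhibitors had 3 of 34 higher (8.82%) and 6 lower (17.6%). CDK2, the kinase of the G1/S transition, was at 114.4, 110.3 and 111.5 CPM in siRHOB-labelled libraries, against 123.3, 123.2 and 117.2 CPM in siNC-labelled libraries, with no overlap (log2 fold change -0.11 ± 0.04, edgeR adjusted p = 0.98). CDK1, the mitotic kinase, had ratios of -0.03, -0.13 and -0.04, and CCND2, a D-type cyclin, -0.03, -0.24 and -0.21. CDKN1A, which encodes the inhibitor p21, was at 72.1, 85.4 and 100.2 CPM in siRHOB-labelled libraries, against 74.7, 79.4 and 124.4 CPM in siNC-labelled libraries, with no common direction. CCND1 also split, at 0.06, 0.06 and -0.19. Tubulin and microtubule genes had 3 of 41 higher (7.32%) and 4 lower (9.76%), among them MAPRE3, a plus-end binding protein, at -0.19, -0.09 and -0.25.

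Cytokine and NF-kB genes had 7 of 35 lower (20%) and 0 higher in all 3 pairs, against 12.2% and 13.8% of all genes. Their median log2 fold change was -0.13. Pair 3 weighed most: all 35 were lower there, against 18 in pair 1 and 12 in pair 2. Without pair 3, 7 of the 35 (20%) were lower in both other pairs, against 25.1% of all genes. Without pair 1 it was 12 of 35, against 22.5%, and without pair 2 it was 18 of 35, against 25.2%. NFKBIZ, a nuclear regulator of NF-kB, was at 13.6, 12.7 and 16.7 CPM in siRHOB-labelled libraries, against 16.8, 16.9 and 20.7 CPM in siNC-labelled libraries, without overlap (log2 fold change -0.34 ± 0.09, edgeR adjusted p = 0.98). CXCL1, a chemokine that draws neutrophils, was at 0.486, 0.432 and 2.30 CPM in siRHOB-labelled libraries, against 0.568, 0.988 and 4.94 CPM in siNC-labelled libraries. The abundant chemokines did not keep a direction: CXCL8 had ratios of -0.08, 0.03 and -1.14, and CCL2 0.13, 0.41 and -0.58. CCL2 was several times higher in replicate 3 of both groups than in the others, at 327.8 CPM in the siRHOB-labelled and 489.7 CPM in the siNC-labelled library.

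Immediate early and MAPK-induced genes had 2 of 39 higher and 2 lower in all 3 pairs (5.13% each), against 13.8% and 12.2% of all genes. Their pair medians of 0.03, 0.21 and -0.15 split between pairs 2 and 3. Stress and unfolded-protein genes had 3 of 41 higher (7.32%) and 8 lower (19.5%). Among the lower was PHGDH, which opens serine synthesis, with ratios of -0.19, -0.45 and -0.20. Cholesterol synthesis genes had 9 of 30 higher (30.0%) and 4 lower (13.3%), with a median of 0.02. MVK and PMVK, successive kinases of the mevalonate pathway, went opposite ways, at 0.13, 0.15 and 0.17 for MVK and -0.35, -0.11 and -0.36 for PMVK. Interferon-response genes had 3 of 35 higher (8.57%) and 5 lower (14.3%), and RNA interference genes 2 of 16 each way (12.5%). Apoptosis regulators had 3 of 31 higher (9.68%) and 5 lower (16.1%), and integrins and matrix 4 of 43 higher (9.3%) and 2 lower (4.65%). Of the tested markers of other cells, monocyte and granulocyte genes had 3 of 16 higher and 3 lower (18.8% each). Lymphoid genes had 2 of 12 higher (16.7%) and 4 lower (33.3%), and fibroblast, epithelial and endothelial genes 2 of 11 higher (18.2%) and 1 lower (9.09%).

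In growth medium, the same pairing gave RHOB log2 ratios of -0.97, -0.48 and -1.53, lower in each pair. RHOB did not pass the adjusted threshold of the paired edgeR fit there (log2 fold change -0.92, unadjusted p = 0.000983, adjusted p = 0.71). The 2 of 12585 genes (0.0159%) that passed were PPP2R3B and GYPB. The difference of the RHOB effect between media was 0.87 ± 0.31 on the log2 scale (MK minus growth, edgeR interaction, unadjusted p = 0.0141, adjusted p = 1). Over all genes, no interaction passed the adjusted threshold (0 of 14026), and 440 (3.14%) had an unadjusted p under 0.05, while DESeq2 called 6. RPL21 had growth ratios of -0.47, 0.18 and 0.15, and ITGA2B 0.32, 0.06 and -0.20, so neither kept in growth medium the direction it had in all 3 MK pairs. Of the 78 ribosomal protein genes, 1 was lower and 2 were higher in all 3 growth pairs, where 9.89% and 9.14% of all genes were.

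Of 12445 genes tested in both media, 1732 were higher in all 3 MK pairs, and 146 of these were also higher in all 3 growth pairs. That is 8.43% of the MK list and 12.9% of the growth list of 1134. Another 129 of the MK list (7.45%) were lower in all 3 growth pairs. For genes lower in all MK pairs, 163 of 1543 were lower in all growth pairs (10.6% of the MK list, 13.3% of the growth list of 1222). Another 123 of that MK list (7.97%) were higher in all growth pairs. Among all genes tested in both media, 9.11% were higher and 9.82% lower in all growth pairs, which is the background for the shares of the MK lists, and 13.9% were higher and 12.4% lower in all MK pairs, which is that for the shares of the growth lists. KIF9 was higher in all 6 pairs, with growth ratios of 0.16, 0.20 and 0.38. ZBTB10 and NSUN3 were lower in all 6, with growth ratios of -0.52, -0.29 and -0.17 for ZBTB10 and -0.30, -0.10 and -0.26 for NSUN3. GSR, glutathione reductase, was lower in all 6 by small ratios, from -0.09 to -0.14 in MK medium and from -0.09 to -0.12 in growth medium. The cytokine IL6 and the chemokine CXCL2 were also lower in all 6 pairs, with growth ratios of -0.27, -0.91 and -0.98 for IL6 and -0.75, -0.20 and -0.17 for CXCL2.

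**Figure D5:**
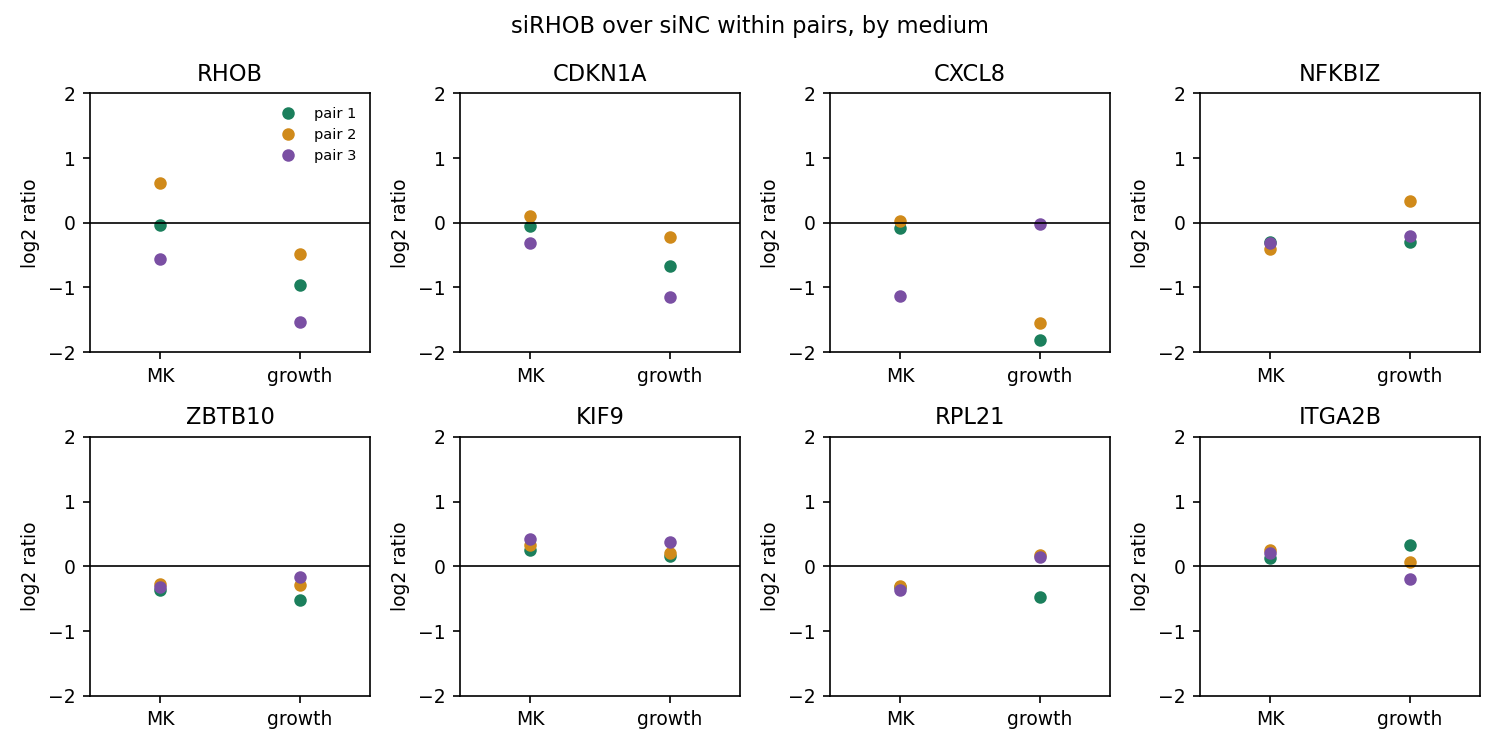
Each point is the log2 ratio of siRHOB over siNC in a pair, in MK medium (left) and growth medium (right), for 8 genes. RHOB is below 0 in all growth pairs and on both sides of 0 in MK pairs, KIF9 is above and ZBTB10 below 0 in all 6 pairs, and RPL21 is below 0 in all MK pairs and in 1 growth pair.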

How the data were processed

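RNA-seq of K562 cells was used as deposited. The authors deposited gene-level counts as whole reads. The FPKM values, also deposited, served an alternative test and levels between genes. Both tables have 12 columns, matched to samples by name. GRCh37.p13, featureCounts 2.0.2, HISAT2 2.2.1 and edgeR appear in the submitters' processing notes, without role or order. Strandedness and gene models were not given in the sources used here. No gene coordinates were used.

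The 6 MK libraries were fitted in edgeR 4.0.16 with its quasi-likelihood test (R 4.3.3, limma 3.58.1; two-sided, robust, TMM, filterByExpr, replicate number as a block), with Benjamini-Hochberg adjusted p under 0.05 over all tested genes. Pair ratios are log2 CPM with a prior count of 2. The pairing came from the numbers in the labels. Deviations from the group means correlated between same-numbered libraries by 0.633, 0.500 and 0.850, and by 0.469 and 0.597 between replicates 1 and 2 crossed, so that pairs 1 and 2 could not be told from each other this way. No library was a copy of another. A model of all 12 libraries with blocks within medium tested the difference between media. The fit was tested on simulated data with known changes. Those were larger than the differences of most genes here, so that test does not speak of how well small differences are found.

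Named genes were RHOB, RHOA and RHOC, genes past the threshold, the 12 in each direction with a mean of at least 5 CPM and the largest smallest-pair ratio, up to 3 members per list with the largest such ratio, and a fixed list; others were named after their values were seen, and a few that the rule names are not reported here. The members and lists were chosen with earlier results of these data known. Alternatives were no block, RLE scaling, no filter, DESeq2 1.42.0, 12 libraries, limma on log2(FPKM + 1), prior counts 0.5 and 8, leaving out each pair, and a length correction.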

Additional observations from a re-analysis of the deposited data

Results flagged for a closer look

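For 3 named genes the siRHOB-labelled library lay below its partner in all 3 MK pairs and above it in all 3 growth pairs. CD36 had log2 ratios of -0.80, -0.59 and -1.12 in MK medium, against 0.23, 0.63 and 0.41 in growth medium, a difference of -1.34 (MK minus growth, edgeR interaction, adjusted p = 1). Its level was under 1 CPM in every MK library. ARHGAP15, a GTPase-activating protein of Rac, had ratios of -0.67, -0.31 and -0.14 in MK medium, against 0.36, 0.31 and 0.45 in growth medium, a difference of -0.79 (adjusted p = 1 by edgeR). TBCA, a tubulin folding cofactor, had -0.22, -0.03 and -0.11 in MK medium, against 0.03, 0.10 and 0.02 in growth medium, a difference of -0.17 (edgeR adjusted p = 1). None passed the adjusted threshold. Such reversals were no more frequent than the background. Of the 1543 genes lower in all MK pairs, 123 (7.97%) were higher in all growth pairs, against 9.11% of all genes tested in both media. Of the 1732 higher in all MK pairs, 129 (7.45%) were lower in all growth pairs, against 9.82%.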

How the results depend on the processing

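The single call of the paired fit depended on the block. Without the replicate block 0 genes passed (60 at an unadjusted p under 0.05), and 0 passed in the 12-library fit (267), by limma on log2(FPKM + 1) (647) and after the length correction (601), which was chosen after seeing the data. RPL21 had adjusted p of 1, 1, 0.725 and 0.974 in these fits and log2 fold changes of -0.33, -0.34, -0.33 and -0.25; it passed with RLE scaling, no filter and DESeq2, and over all alternatives its adjusted p lay between 1.88e-07 and 1. Leaving out pairs 1, 2 and 3 in turn gave 0, 27 and 61 calls (none, 16 and 10 of them ribosomal protein genes that were lower), so the count ranged from 0 to 61. Calls gained without pair 2 or 3 included RPL34, NDUFA13, RPL23A and RPL31, and without pair 3 also HBG1 (log2 fold change -0.28, adjusted p = 5.67e-05), PLCXD1 (0.78, adjusted p = 0.00417), RASA4 (0.61, adjusted p = 0.00465), PCLAF (-0.23, adjusted p = 0.0361), ITGA2B (0.18, adjusted p = 0.0435), TPM4 (0.18, adjusted p = 0.0448) and EIF3CL (0.40, adjusted p = 0.0466). Each fit without a pair rested on only 2 pairs, and its p-values speak only of the spread between those. Without pair 3 these were replicates 1 and 2, which lay closest to each other in both groups. HBG1 had log2 ratios of -0.43 and -0.12 in pairs 1 and 2. The cause of the gained calls was not tested.

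RHOB had a log2 fold change of 0.0035 by DESeq2, and between -0.32 and 0.29 with a pair left out. Genes higher in all pairs numbered 287 where every siRHOB-labelled library had to lie above every siNC-labelled one, and genes lower 269 where below; with a pair left out they ranged over 3289 to 3851 and 3082 to 3459 by construction. At 1.5-fold or more in every pair, a prior count of 8 left 9 higher and 2 lower, a mean of at least 5 CPM left 0 and 0, no overlap of the groups left 5 and 3, and leaving out a pair gave 73 to 107 and 66 to 92. Ribosomal protein genes lower in all remaining pairs numbered 40 to 67. Of 1040 values of 104 named genes under the alternatives, 1013 kept direction and side of the threshold. The media difference gave 6 calls by DESeq2 and 1 to 4 with a replicate left out.

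Log2 fold changes also turned for genes named above without a common direction. CCL2 was at 0.014 after the length correction. With a pair left out, TUBB1 ranged from -0.016 to 0.11, KLF1 from -0.20 to 0.066, MYB from -0.092 to 0.10, CCND1 from -0.070 to 0.055, CDKN1A from -0.18 to 0.027 and CCL2 from -0.26 to 0.27, the last with an adjusted p of 0.00856 without pair 3. The cause of these turns was not tested.

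Depth limits genes under 5 CPM, where all 28 genes at 1.5-fold or more in every pair lay, and 3 pairs limit the rest.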
